A study of Arabidopsis thaliana with 18 samples.

Results

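CRT2 and ERDJ3B, both chaperones of the endoplasmic reticulum (ER), were followed in all 18 Affymetrix ATH1 arrays of the Arabidopsis thaliana accession Cvi-1. The genes were chosen by name with earlier results of these data known, so the choice was not blind to them. Each has 1 probe set that detects no other gene. CRT2 is AT1G09210 on chromosome 1, called CRT1b in the RefSeq gene table, and ERDJ3B is AT3G62600 on chromosome 3. These are 2 of the 13286 genes with such a probe set and 2 of the 7253 of them that passed the filter on low signal, which left 13648 of 22810 probe sets in all. Plants of 9 arrays received the wetting agent silwet at 0.02%, and plants of the other 9 received 0.30 mM salicylic acid (SA) in silwet of the same strength, so silwet was common to both groups and untreated plants were not analysed here. Titles number the silwet arrays 19 to 27 and the SA arrays 28 to 36, and these serial numbers name the arrays here. The 3 arrays of each treatment that carry replicate numbers 1, 2 and 3 in a row were taken as a serial block: block 1 held arrays 19 to 21 and 28 to 30, block 2 arrays 22 to 24 and 31 to 33, and block 3 arrays 25 to 27 and 34 to 36. The labels do not say what a serial block stands for (a time, a plant batch or a hybridisation), and they name no tissue, plant age or time of harvest. No label tells whether the arrays of a group are from different plants, and each p-value therefore covers only the spread between these arrays, which may be technical.

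CRT2 is a calreticulin, a calcium-binding lectin chaperone that holds newly made glycoproteins in the ER lumen until their sugar chains and fold are complete. ERDJ3B is a J-domain protein of the ER lumen that works with the Hsp70 chaperone BiP and its partner SDF2, and in Arabidopsis it is required for the receptor kinase EFR, which detects a bacterial elongation factor, to accumulate. When unfolded proteins build up, membrane-bound transcription factors such as bZIP60 and bZIP28 raise the genes for such chaperones (the unfolded protein response, UPR), while proteins that stay misfolded leave the ER through ER-associated degradation (ERAD). In Arabidopsis, NPR1, a co-activator of SA responses, is known to act on genes of the secretory pathway, which is the setting in which an SA treatment bears on ER chaperones.

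The median signal was 31.7 to 38.7 per array, and it was lowest in array 34 (31.7), followed by arrays 30 (33.1), 20 (33.3) and 28 (34.6). The ratio of the 3′ to the 5′ ubiquitin probe set was lowest in array 20 (2.31) and highest in array 34 (3.71). The part of these measures in the results was not tested. The leaf photosynthesis genes RCA, the activase of Rubisco, and LHCB4.1, a light-harvesting protein, had mean signals of 2509 to 3088 in the serial blocks, while the 3 probe sets of the root list (EXPA7, EXPA18 and AT4G26010) stayed below the filter. Arrays 20, 28 and 30 stood apart: the signal of UGT76B1, a glycosyltransferase that conjugates SA, was 1540, 1238 and 1552 there and at most 77.6 in the other 15 arrays. Array 20 carries the silwet label and arrays 28 and 30 the SA label, so results that rest on these 3 arrays are given with and without them. All 3 lie in serial block 1. They also held the 3 highest ERDJ3B signals, so leaving them out lowers that block by construction.

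CRT2 was among the more strongly hybridised genes of the array, its mean log2 signal lying at percentile 97.7 of all probe sets. Under silwet its signal was 984, 1465 and 910 in arrays 19, 20 and 21, 1075, 1019 and 1087 in arrays 22, 23 and 24, and 911, 813 and 847 in arrays 25, 26 and 27. With SA it was 1323, 1284 and 1036 in arrays 28, 29 and 30, 763, 1165 and 833 in arrays 31, 32 and 33, and 469, 974 and 682 in arrays 34, 35 and 36. Array 20 was the highest of all and array 34 the lowest, 3.12-fold apart, and the 3 highest arrays (20, 28 and 29) were in serial block 1.

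ERDJ3B lay at percentile 95.1 by mean log2 signal, a rank of signals within the array that does not set the amounts of the transcripts against each other. Its silwet signals were 491, 1063 and 585 in arrays 19, 20 and 21, 498, 476 and 667 in arrays 22, 23 and 24, and 509, 399 and 395 in arrays 25, 26 and 27. In the SA arrays the signals were 924, 690 and 1042 in arrays 28, 29 and 30, 390, 581 and 484 in arrays 31, 32 and 33, and 444, 481 and 390 in arrays 34, 35 and 36. ERDJ3B thus split into 3 arrays at 924 to 1063 and 15 arrays at 390 to 690, whereas CRT2 showed no such gap.

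**Figure D1:**
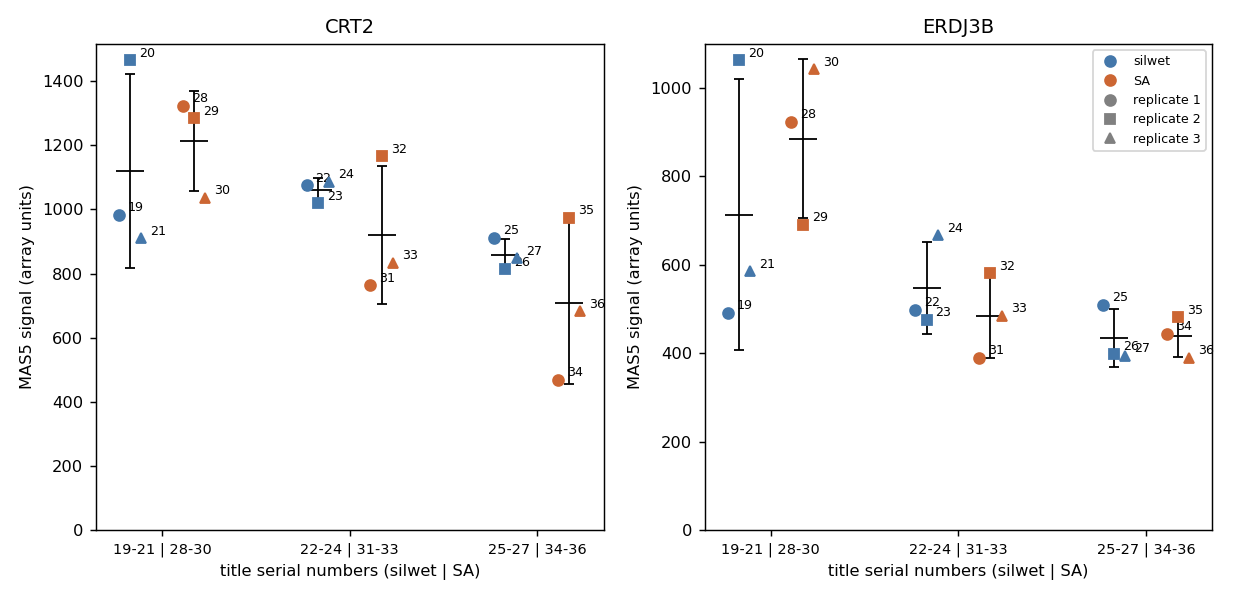
MAS5 signal of CRT2 (left) and ERDJ3B (right) in every array, numbered by title serial; colour gives the treatment, shape the replicate number, and the bars the mean and SD of each group of 3 arrays. The highest signals of both genes lie in serial block 1, ERDJ3B reaching 1063, 1042 and 924 in arrays 20, 30 and 28.

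The labels set SA in silwet against silwet alone, and neither chaperone differed beyond the spread between arrays. CRT2 had a mean signal of 948 ± 286 (SD, n = 9) with SA and 1012 ± 195 (SD, n = 9) with silwet. ERDJ3B had 603 ± 237 (SD, n = 9) with SA and 565 ± 205 (SD, n = 9) with silwet. The treatments overlapped for both genes, with ranges (SA first) of 469 to 1323 against 813 to 1465 for CRT2 and 390 to 1042 against 395 to 1063 for ERDJ3B. On the log2 scale the difference, SA minus silwet, was -0.14 for CRT2 (SE 0.17, 95% interval -0.50 to 0.21) and 0.07 for ERDJ3B (SE 0.21, 95% interval -0.37 to 0.51), with a limma adjusted p of 0.9999 for each. The two-sided exact permutation test over arrays gave p = 0.465 for CRT2 and p = 0.756 for ERDJ3B, and p = 0.347 and p = 0.650 when labels were exchanged only within serial blocks. Limma called 0 of the 13648 probe sets in this comparison (0%), with 94 at an unadjusted p under 0.05. These intervals do not show that either gene stayed the same.

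Within the serial blocks the SA difference of CRT2 was 0.14 in block 1, -0.23 in block 2 and -0.34 in block 3 (SE 0.23 in each, 3 arrays against 3). ERDJ3B had differences of 0.37, -0.18 and 0.02 (SE 0.25 in each). The CRT2 value in block 3 leaned on array 34: without that array it was -0.07 (SE 0.22), and the CRT2 difference over all blocks was -0.02 (SE 0.14). Both genes had their highest estimate in block 1. None passed: limma called 0% of all probe sets in block 1, 0% in block 2 and 0% in block 3, with 121, 56 and 337 at an unadjusted p under 0.05. The exact permutation p was 0.7, 0.4 and 0.4 for CRT2 and 0.4, 0.5 and 1 for ERDJ3B, where 3 arrays against 3 cannot go below 0.1. A direct F-test of whether the SA difference varied between blocks gave a limma adjusted p of 0.9996 for both genes and called 0% of all probe sets, with 91 at an unadjusted p under 0.05. Between the replicate numbers the SA difference ran from -0.34 to 0.09 for CRT2 and from -0.02 to 0.12 for ERDJ3B.

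The value for ERDJ3B in block 1 turned on which arrays were kept. Without replicate number 2, block 1 kept SA arrays 28 and 30 against silwet arrays 19 and 21 (arrays 20 and 29 left out). ERDJ3B was then higher with SA by 0.87 (SE 0.22, limma adjusted p = 0.0374), where limma called 1129 of the 13648 probe sets. Arrays 28 and 30 are among the arrays with the highest ERDJ3B signals. Leaving out arrays 20 and 29 thus sets high against low ERDJ3B signals by construction and cannot decide on SA. The difference was 0.70 without array 20 alone (SE 0.22, limma adjusted p = 0.443) and 0.54 without array 29 alone (SE 0.27, limma adjusted p = 0.330). CRT2 had 0.31 without replicate number 2 (SE 0.20, limma adjusted p = 0.377). Without arrays 20, 28 and 30, which leaves array 29 as the only SA array, assumed to vary like the other groups, the ERDJ3B difference was 0.36 (SE 0.27, limma adjusted p = 0.9997), close to the value over all arrays. In block 1 the ERDJ3B signals of the treatments interleave, with array 20 above every SA array and array 29 next to array 21.

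**Figure D2:**
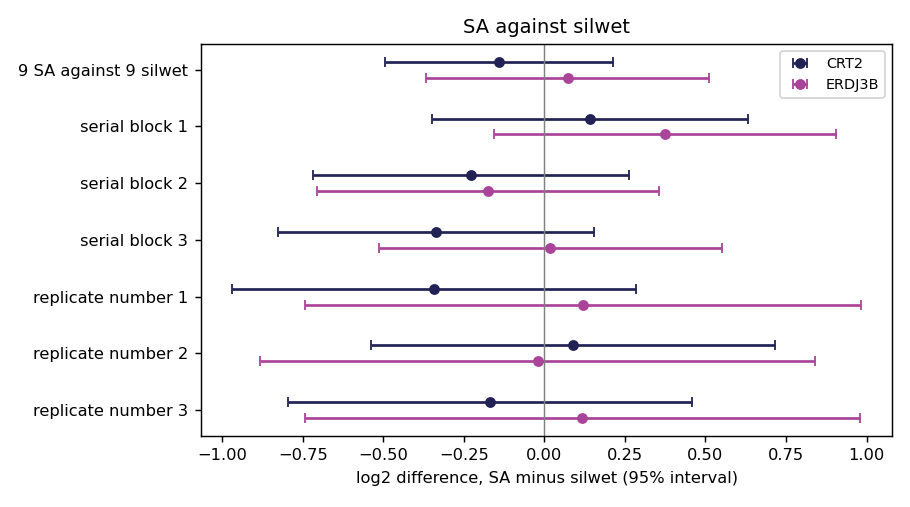
Log2 difference between SA and silwet for CRT2 and ERDJ3B over all arrays, within each serial block and within each replicate number; points are estimates and bars 95% intervals. Every interval spans 0, and the highest estimate is 0.37 for ERDJ3B in serial block 1.

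The differences between serial blocks were larger than those between treatments. CRT2 had a mean signal of 1167 ± 221 in block 1, 990 ± 158 in block 2 and 783 ± 183 in block 3 (SD, n = 6 each). The range was 910 to 1465 with a median of 1160 in block 1, 763 to 1165 with a median of 1047 in block 2, and 469 to 974 with a median of 830 in block 3. The blocks of CRT2 overlapped, since array 35 of block 3 lay above array 21 of block 1. For ERDJ3B the mean signal was 799 ± 244, 516 ± 95.7 and 436 ± 50.5 in blocks 1, 2 and 3 (SD, n = 6 each). The range was 491 to 1063 with a median of 807 in block 1, 390 to 667 with a median of 491 in block 2, and 390 to 509 with a median of 421 in block 3. Here array 25 of block 3 lay above array 19 of block 1, and the spread narrowed from block 1 to block 3.

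Ordered by mean signal, the 6 groups of 3 arrays ran for CRT2 from SA in block 1 (1214 ± 156) through silwet in block 1 (1120 ± 301), silwet in block 2 (1060 ± 36.3), SA in block 2 (920 ± 215) and silwet in block 3 (857 ± 50.0) to SA in block 3 (709 ± 254; SD, n = 3 each). ERDJ3B ran from SA in block 1 (886 ± 179) through silwet in block 1 (713 ± 307), silwet in block 2 (547 ± 104), SA in block 2 (485 ± 95.6) and SA in block 3 (438 ± 46.0) to silwet in block 3 (434 ± 65.1; SD, n = 3 each). Neighbours in either order differed by less than the larger SD of the pair. The groups at the ends were those of SA in block 1 and either treatment in block 3.

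An F-test for serial block that held treatment as a term called ERDJ3B (limma adjusted p = 0.0138) and missed CRT2 (limma adjusted p = 0.0524). This is 1 of the 2 genes, where the same test called 12.7% of all probe sets. The exact permutation test, with block labels exchanged within treatments, gave p = 0.0103 for CRT2 and p = 0.00297 for ERDJ3B. Without array 20 the ERDJ3B call was narrowly lost (limma adjusted p = 0.0507), and without arrays 20, 28 and 30 the adjusted p was 0.390, while without replicate number 2 or 3 it was 0.233 or 0.184 (limma). The CRT2 call was gained without array 19 (limma adjusted p = 0.0277), without array 21 (limma adjusted p = 0.0283) and without array 35 (limma adjusted p = 0.0319).

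Both genes were lower in block 3 than in block 1. CRT2 fell by 0.59 on the log2 scale (SE 0.16, limma adjusted p = 0.0218), to 0.663-fold of its block 1 level with a 95% interval of 0.522 to 0.842. ERDJ3B fell by 0.82 (SE 0.18, limma adjusted p = 0.00652), to 0.566-fold with a 95% interval of 0.436 to 0.734. Limma called 7.99% of all probe sets lower in this comparison, so both genes belong to a group of 1091. The exact permutation p was 0.01 for each gene. Between arrays of the same treatment and replicate number, CRT2 was lower in block 3 in 6 of 6 pairs and ERDJ3B in 5 of 6, the exception being array 25 against array 19 (0.054). Of all tested probe sets, 7.07% were lower in 6 of 6 pairs and 19.6% in 5 or 6. The drop was smaller without arrays 20, 28 and 30, -0.43 for CRT2 (SE 0.20, limma adjusted p = 0.345) and -0.43 for ERDJ3B (SE 0.16, limma adjusted p = 0.221). CRT2 also missed the threshold without array 20 alone (-0.53, limma adjusted p = 0.0648) and without array 28 alone (-0.53, limma adjusted p = 0.0519), whereas ERDJ3B kept its call when any single array was left out. Leaving out a replicate number ended the CRT2 call in each case (limma adjusted p = 0.0635 to 0.136), and ended that of ERDJ3B without number 2 (limma adjusted p = 0.124) or number 3 (limma adjusted p = 0.104). The estimates of both genes were below 0 in all of these settings.

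**Figure D3:**
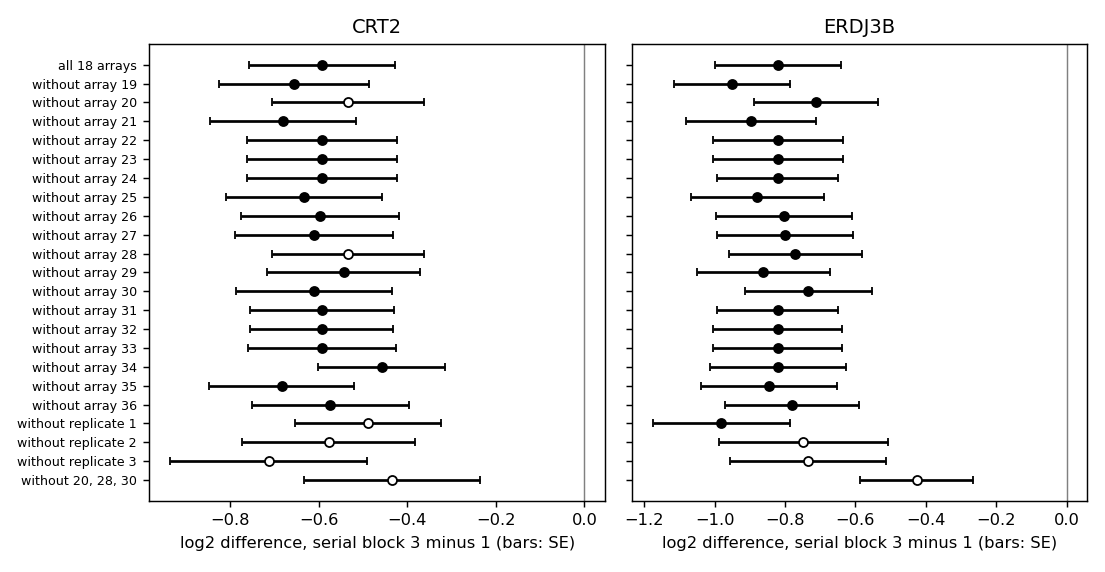
Log2 difference between serial blocks 3 and 1 for CRT2 (left) and ERDJ3B (right) with all arrays, with each array or replicate number left out, and without arrays 20, 28 and 30; bars are SE and filled points passed an adjusted p of 0.05. Every estimate is below 0, and both genes reach -0.43 without the 3 arrays.

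Block 2 lay between the other blocks for both genes. From block 1 to block 2, ERDJ3B fell by 0.59 (SE 0.18, limma adjusted p = 0.0383, exact permutation p = 0.035), and limma called 5.99% of all probe sets lower. CRT2 had -0.23 (SE 0.16, limma adjusted p = 0.344, exact permutation p = 0.17). The ERDJ3B call was lost when any of arrays 20, 22, 23, 28, 30, 31, 32 or 33 was left out, and its value without arrays 20, 28 and 30 was -0.20 (SE 0.16, limma adjusted p = 0.726). From block 2 to block 3 the values were -0.36 for CRT2 (SE 0.16) and -0.23 for ERDJ3B (SE 0.18), each with a limma adjusted p of 0.9997, and limma called 0% of all probe sets lower there. The exact permutation p for that step was 0.055 for CRT2 and 0.115 for ERDJ3B. Over all arrays the ERDJ3B estimate was larger for the step from block 1 to block 2 and the CRT2 estimate for the step from block 2 to block 3. The ERDJ3B order depends on arrays 20, 28 and 30, and whether the steps or the genes differ was not tested.

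The block 3 against block 1 difference was also taken in each treatment, a contrast added after the block differences had been seen. Among the SA arrays CRT2 fell by 0.83 (SE 0.23, limma adjusted p = 0.0453) and ERDJ3B fell by 0.999 (SE 0.25, limma adjusted p = 0.0315), where 3.55% of all probe sets were called lower. The silwet arrays gave -0.35 for CRT2 (SE 0.23, limma adjusted p = 0.667) and -0.64 for ERDJ3B (SE 0.25, limma adjusted p = 0.438), where 0.359% of all probe sets were called lower. The difference between these differences was -0.48 for CRT2 (SE 0.33) and -0.36 for ERDJ3B (SE 0.36), with a limma adjusted p of 0.995 for each, so the treatments were not shown to differ. The SA call of CRT2 was lost in 18 of 30 alternative settings and that of ERDJ3B in 8 of 30, leaving out array 28 or array 30 among them for both genes.

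General measures of the arrays moved with the blocks to different degrees. The ratio of the 3′ to the 5′ actin probe set, a sign of RNA integrity, was 1.03 ± 0.196 in block 1, 0.926 ± 0.206 in block 2 and 0.791 ± 0.160 in block 3 (SD, n = 6 each), the same order as both chaperones. The ubiquitin ratio was 2.82 ± 0.395, 3.15 ± 0.361 and 3.15 ± 0.454, and the GAPDH ratio 1.16 ± 0.103, 1.05 ± 0.124 and 1.05 ± 0.0927 (SD, n = 6 each). Signals under 16 made up 36.7% ± 1.39 of an array's probe sets in block 1, 35.7% ± 1.504 in block 2 and 36.0% ± 1.89 in block 3 (SD, n = 6 each). Their part in the block differences was not tested. The labels name no tissue, and if the RNA came from a mix of cell types, fewer cells of a type and less RNA per cell cannot be told apart.

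Replicate numbers separated neither gene. CRT2 had a mean signal of 921 ± 289, 1120 ± 234 and 899 ± 147 for numbers 1, 2 and 3, and ERDJ3B had 543 ± 192, 615 ± 242 and 594 ± 245 (SD, n = 6 each). The F-test between numbers gave a limma adjusted p of 0.573 for CRT2 and 0.958 for ERDJ3B, so 0 of the 2 genes were called, where 2.93% of all probe sets were. The exact permutation p was 0.279 for CRT2 and 0.857 for ERDJ3B.

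CRT2 and ERDJ3B varied together over the arrays. Because ERDJ3B set arrays 20, 28 and 30 apart, the relation was taken over the other 15 arrays. There Pearson's r of the log2 signals was 0.67 (permutation p = 0.00479) and Spearman's rho was 0.79 (permutation p = 0.000780). These permutations exchanged arrays across serial blocks, so their p-values do not separate the relation from block differences that both genes share. Without the arrays farthest from the CRT2 median there (29 and 34), r was 0.78 over 13 arrays. Within the serial blocks, of 6 arrays each, r was 0.64 in block 1 (exact permutation p = 0.149), 0.79 in block 2 (exact permutation p = 0.0583) and 0.26 in block 3 (exact permutation p = 0.668), and rho was 0.77, 0.89 and 0.54. Within replicate numbers 1, 2 and 3, again of 6 arrays each, r was 0.68, 0.96 and 0.81 (exact permutation p = 0.199, 0.00556 and 0.0486). Adjusted over these 6 relations, the permutation p was 0.223, 0.117 and 0.668 for the blocks. It was 0.238, 0.0333 and 0.117 for the replicate numbers, so 1 of 6 passed. Arrays of the same replicate number come from all serial blocks, so the relation that passed takes in block differences too. With each of the 6 groups of 3 arrays set to its own mean, r over the 18 arrays was 0.50, so part of the pooled relation lay in the group means. Array 34 was lowest for CRT2 (469) but not for ERDJ3B (444), and array 30 was second for ERDJ3B (1042) but seventh for CRT2 (1036).

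**Figure D4:**
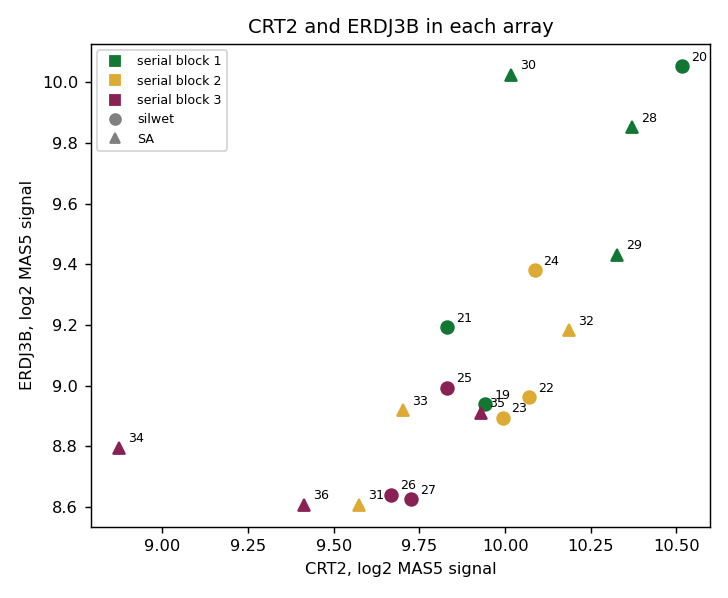
Log2 MAS5 signal of CRT2 against ERDJ3B, 1 point per array with its serial number; colour gives the serial block and shape the treatment. Arrays 20, 28 and 30 sit at the top, and the other 15 arrays rise together with r = 0.67.

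The probe sets most like each chaperone were ranked by Pearson's r of log2 signals over the 18 arrays, among tested probe sets of 1 gene, as a description. The partner chaperone was not at the top of either list: r between the members was 0.71 on this measure, and 2.12% of the other probe sets lay closer to CRT2 and 9.19% closer to ERDJ3B. Without arrays 20, 28 and 30 these shares were 3.54% and 0.931%, so their order depends on the 3 arrays. Closest to CRT2 were OPCL1, an acyl-CoA ligase of jasmonate synthesis (r = 0.92), AT5G11560 (r = 0.88), ACS, an acetyl-CoA synthetase (r = 0.87), and UGT74D1, a glycosyltransferase (r = 0.85), followed by AT1G76360, AT1G76140, AT3G01720 and AT3G03060 (r = 0.82 to 0.84). OPCL1 had a mean signal of 278, 240 and 205 in blocks 1, 2 and 3, and its r with CRT2 was 0.91 without arrays 20, 28 and 30. The lowest values for CRT2 were those of AT5G57815 (r = -0.89), AT1G55000 (r = -0.87) and AT1G01170 (r = -0.87). Each of these had array 34, the lowest for CRT2, among its 3 highest arrays, which the choice by r favours. The CRT2 ranks were not taken again without array 34.

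For ERDJ3B the closest were GFAT, which makes glucosamine 6-phosphate in the pathway to the sugar donors of N-glycans (r = 0.96), and AT1G62790 (r = 0.96), followed by AT1G08940, AT1G13990, AT5G54860, AT5G01210 and AT5G56610 (r = 0.93 to 0.96). The eighth was DER1, a derlin of ERAD (r = 0.93). In each of these 8 the 3 highest arrays were 20, 28 and 30, and r without those arrays was 0.74 to 0.88. GFAT had a mean signal of 101 in block 1, 49.0 in block 2 and 35.5 in block 3. At the other end stood AT1G62780 (r = -0.95), DPE1, a plastid enzyme of starch breakdown (r = -0.92), and AT5G19210 (r = -0.92). All arrays share 1 platform and scaling, and the ERDJ3B ranks lean on 3 arrays.

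The genes that surround both chaperones were described from lists of 142 genes, also chosen with earlier results of these data known. Of these genes 42 had a probe set that detects no other gene, and 38 of the 42 were tested. CRT1, CRT3, the calnexin CNX1, SDF2, BiP and P58IPK have no such probe set in the table used here and are not reported. In SA against silwet, 0 of the list probe sets were called, with a median of 0.02 over the 24 probe sets of the 4 ER lists (folding, UPR, ERAD and entry to the secretory pathway, without CRT2 and ERDJ3B) and -0.02 over all probe sets. Between blocks 1 and 3, 9 of these 24 were called lower and 0 higher, against 7.99% of all probe sets called lower. The estimate was below 0 for 22 of the 24 with a median of -0.28, against 43.0% below 0 and a median of 0.06 over all probe sets. The F-test for block called 5 of the 24 against 12.7%. Without array 20 the count called lower was 5 of 24 (4.31% of all probe sets), and without arrays 20, 28 and 30 it was 1 of 24 (1.21% of all probe sets), with 19 of 24 estimates below 0 and a median of -0.15.

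Among other ER folding genes, 2 of 5 fell from block 1 to block 3, where 7.99% of all probe sets were called lower. AT4G16660 fell by 0.81 (SE 0.19, limma adjusted p = 0.00873) and ATERDJ2B, an ER J-domain protein, by 0.54 (SE 0.15, limma adjusted p = 0.0256). AT4G16660 had a signal of 156 to 274 in block 1, where arrays 28 and 30 were highest, and 77.6 to 161 in block 3, so the blocks overlapped (array 29 lay below array 25). Without arrays 20, 28 and 30 the differences were -0.45 for AT4G16660 (limma adjusted p = 0.219) and -0.25 for ATERDJ2B (limma adjusted p = 0.539). The other 3 had -0.29 (ATERDJ2A, an ER J-domain protein), -0.16 (AT5G07340) and -0.09 (PDIL5-1, a protein disulfide isomerase). Between replicate numbers ATERDJ2A was called (limma adjusted p = 0.0380), as was AT1G78720 of the secretory list (limma adjusted p = 0.0302).

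Of the UPR regulators 2 of 3 fell from block 1 to block 3, against 7.99% of all probe sets called lower. BZIP60, the transcription factor activated by IRE1 splicing, stood at a signal of 426, 930 and 764 in silwet arrays 19, 20 and 21 and at 901, 610 and 1028 in SA arrays 28, 29 and 30. In the 12 arrays of blocks 2 and 3 it had 290 to 461, so array 19 alone of block 1 overlapped them. BZIP60 fell by 1.16 (SE 0.18, limma adjusted p = 0.000580) from block 1 to block 3. BZIP28, which is released from the ER membrane by proteolysis, fell by 0.94 (SE 0.24, limma adjusted p = 0.0150). Without arrays 20, 28 and 30, BZIP60 had -0.81 (limma adjusted p = 0.0254) and was the only 1 of the 24 ER probe sets still called, while BZIP28 had -0.52 (limma adjusted p = 0.379). BZIP17, a relative of BZIP28 tied to salt stress, had -0.16 (SE 0.17, limma adjusted p = 0.532).

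In the ERAD list 3 of 5 fell from block 1 to block 3, against 7.99% of all probe sets called lower. DER1 fell by 0.69 (SE 0.17, limma adjusted p = 0.0131), DER2.1, another derlin, by 0.58 (SE 0.13, limma adjusted p = 0.00805) and OS9, a lectin that selects misfolded glycoproteins, by 0.57 (SE 0.17, limma adjusted p = 0.0316). DER1 had a signal of 372.5 in array 20, 289 in array 28 and 263 in array 30. The other 15 arrays had 121 to 197, a split that was not counted over all probe sets. Without those 3 arrays DER1 had -0.31 (limma adjusted p = 0.322), DER2.1 had -0.53 (limma adjusted p = 0.0684) and OS9 had -0.25 (limma adjusted p = 0.552). The second DER1 probe set stayed below the filter, at 1.22 to 9.47. DER2.2 (-0.18) and UBC32, a ubiquitin-conjugating enzyme of the ER (-0.15), did not pass.

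In the list for entry to the secretory pathway, 2 of 11 probe sets were called lower in block 3 than in block 1, against 7.99% of all probe sets. These were AT3G60540, by 0.92 (SE 0.29, limma adjusted p = 0.0403), and AT1G29310, by 0.50 (SE 0.17, limma adjusted p = 0.0482). They had -0.37 and -0.23 without arrays 20, 28 and 30 (limma adjusted p = 0.659 and 0.586). The other 9 had estimates between -0.53 and 0.26, and both probe sets of AT3G48570 (-0.53 and -0.36) missed the threshold. From block 1 to block 2, AT1G76400 was called higher by 0.36 (SE 0.12, limma adjusted p = 0.0497), which was 1 of 3 calls in either direction among the 24 ER probe sets, where 12.6% of all probe sets were called, a like share.

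**Figure D5:**
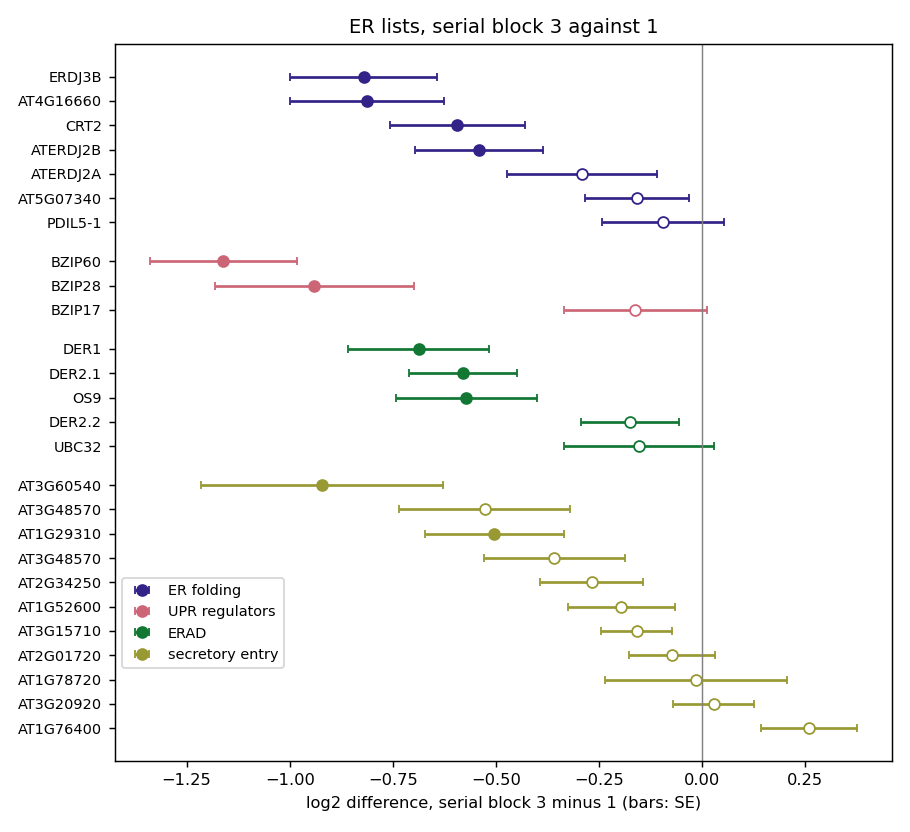
Log2 difference between serial blocks 3 and 1 for the tested probe sets of the 4 ER lists, with SE bars; filled points passed an adjusted p of 0.05 over all probe sets. The estimates run from -1.16 for BZIP60 to 0.26 for AT1G76400, and 2 probe sets lie above 0.

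EFR, the receptor whose accumulation depends on ERDJ3B, had a mean signal of 41.2, 39.9 and 40.4 in blocks 1, 2 and 3, with a difference of 0.04 between blocks 3 and 1 (SE 0.23, limma adjusted p = 0.915). BIK1, a kinase that acts below such receptors, had 162 to 355 in the 6 arrays of block 1 and 90.7 to 123 in the other 12. How many of all probe sets part these arrays in the same way was not counted. BIK1 fell by 1.26 from block 1 to block 3 (SE 0.16, limma adjusted p = 0.000132). The BIK1 difference was -0.90 without arrays 20, 28 and 30 (limma adjusted p = 0.00219), and that of EFR was 0.54 (limma adjusted p = 0.258). Of the SA markers 3 of 4 fell from block 1 to block 3, where limma called 7.99% of all probe sets lower. UGT76B1 fell by 4.22 (SE 0.86, limma adjusted p = 0.00449), WRKY53, a transcription factor of senescence and defence, fell by 1.62 (SE 0.37, limma adjusted p = 0.00855) and GRX480, a glutaredoxin, fell by 1.46 (SE 0.42, limma adjusted p = 0.0268). SAG101, a lipase-like defence protein, had -0.35 (SE 0.22, limma adjusted p = 0.260). Without arrays 20, 28 and 30 the count was 0 of 4 for the SA markers, where 1.21% of all probe sets were called lower (-1.76 for UGT76B1, -0.74 for WRKY53 and -0.34 for GRX480). Of these, UGT76B1 is the gene that set those arrays apart above. Hsp70-2, a cytosolic heat shock protein, fell by 1.60 from block 1 to block 3 (SE 0.38, limma adjusted p = 0.00968), and AT3G09440 of the same list had -0.83 (SE 0.29, limma adjusted p = 0.0537). The Hsp70-2 signal was 856, 760 and 718 in arrays 20, 28 and 30 and at most 284 in the other 15. That split was not counted over all probe sets either. Without arrays 20, 28 and 30 the Hsp70-2 difference was -0.59 (limma adjusted p = 0.285). The reference genes AT4G34270, AT2G28390 and AT4G26410 had -0.13, 0.04 and 0.01. In either direction 0 of 3 were called, where limma called 2226 of the 13648 probe sets. With 3 genes this count does not show that they stayed the same.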

How the data were processed

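RNA of 18 Cvi-1 samples, labelled with biotin, was measured on ATH1 arrays. The deposited table holds MAS5 signal intensity per probe set, per the labels and the submitters' processing notes; the 2% trimmed mean of each array is 100.0, and no label gives further settings. Values were taken to log2 with no pseudocount, 64 control probe sets were removed, and those with a mean log2 signal at or above the 40th percentile (4.31) were kept, 13648 in all. Differences were tested with limma 3.58.1 in R 4.3.3 (intensity trend, Benjamini-Hochberg adjustment over all tested probe sets, threshold 0.05); single values by exact permutation of arrays, and correlations over more than 6 arrays by 100000 permutations. Serial block contrasts and the block F-test came from a model of serial block with treatment as a term. A model of 6 groups gave the SA differences within blocks, the test between them and the block differences within each treatment. The script was tested on simulated data. Genes were named through GEO's platform table and RefSeq symbols, and only from probe sets of 1 gene. Named list genes were up to 4 called per list, or the nearest and the smallest p where none was called. The members and lists were chosen with earlier results of these data known. No label says that arrays of the same replicate number are pairs, so the main fits did not take them as pairs. Same-numbered arrays still deviated together (r over 0.1) in 6 of 9 pairs. A further number in the titles, not explained there, runs with the replicate number. Within each replicate number, that title number also rises from serial block to serial block. Its part in the block differences was not tested. Fits with the replicate number as a block are given at the end. The number of arrays limits the precision.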

Additional observations from a re-analysis of the deposited data

Results flagged for a closer look

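Of 16 groups of arrays examined for CRT2 and ERDJ3B (by treatment, serial block and replicate number), 2 held an array far from the others by Dixon's gap, where chance gives about 1 in 20. CRT2 in the 9 silwet arrays was highest in array 20, at 1465 against 1087 in the next array, a gap of 0.507 of the range on the log2 scale. ERDJ3B in the 6 arrays of replicate number 1 was highest in array 28, at 924 against 509 in the next array, a gap of 0.690 of the range.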

How the results depend on the processing

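SA against silwet over 9 arrays each called 0 probe sets in all 32 alternatives, and neither chaperone passed in any. Signs turned at small values: ERDJ3B had -0.031 without arrays 20, 28 and 30 and -0.021 within replicate number 2 (single arrays or numbers left out, -0.037 to 0.19), and CRT2 had 0.088 within replicate number 2. In serial block 1, leaving out arrays or numbers gave 0 to 1129 calls, ERDJ3B differences of 0.10 to 0.87 and CRT2 differences of -0.0021 to 0.35. In block 2 the count was 0 to 1, and 1 with array weights and without arrays 20, 28 and 30. In block 3 CRT2 had 0.020 with array weights, and ERDJ3B had -0.011 with quantile normalization and -0.11 to 0.14 with arrays or numbers left out. The test between blocks called 1 probe set with array weights, 1 without arrays 20, 28 and 30, and 0 to 77 with arrays or numbers left out.

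The block F-test called 688 probe sets without array 20, 157 without arrays 20, 28 and 30, and 121 to 3044 with arrays or numbers left out (3044 without array 19, 2692 without 29, 732 without 30). Its adjusted p for CRT2 was 0.0487 with a filter at the 60th percentile, 0.0360 with quantile normalization and 0.0277 to 0.256 with arrays or numbers left out. For ERDJ3B it was 0.0507 without array 20, 0.390 without arrays 20, 28 and 30 and 0.00216 to 0.233 with arrays or numbers left out. Block 3 minus 1 was -0.53 (array 20 out), -0.43 (arrays 20, 28 and 30 out) and -0.71 to -0.46 for CRT2, and -0.43 (arrays 20, 28 and 30 out) and -0.98 to -0.71 for ERDJ3B. Block 2 minus 1 for ERDJ3B was -0.59 with no filter (adjusted p = 0.0561), -0.48 without array 20, -0.20 without arrays 20, 28 and 30 and -0.72 to -0.48 with arrays or numbers left out. Between replicate numbers the count was 209 with the stricter filter, 609 with median centring, 1417 with array weights, 995 with serial block as a term, 744 without arrays 20, 28 and 30 and 114 to 496 with arrays left out. The correlation of the chaperones, 0.71 over all arrays, missed an unadjusted p of 0.05 within serial blocks 1, 2 and 3 (0.64, 0.79 and 0.26) and replicate number 1 (0.68), and after adjustment over the 6 relations within replicate number 3 (0.81) too. The count of ER list probe sets called lower was 5 without array 20, 1 without arrays 20, 28 and 30, 8 with quantile normalization and 7 with median centring, a comparison added after the data were seen. Fewer arrays lower the power by construction; other causes were not tested.

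With the replicate number as a block the block F-test called 2261 probe sets and gave CRT2 an adjusted p of 0.0307 and ERDJ3B 0.0158; SA against silwet still called 0 with 3 levels and with 9 pairs. Same-numbered pairs correlated from -0.70 to 0.66, and 11 of 18 arrays were nearest to one of their own number, a hint from the data and not the design. The block changed no other call of the chaperones.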
